A study of Mus musculus with 7 samples.

Results

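Nucleic acid sensors and the proteins that carry their signal to the transcription factor IRF3 were followed at the level of mRNA in satellite cells, the stem cells of skeletal muscle. The genes were chosen by name, with no measured value in the rule: the sensor genes Ddx58 (Rigi), Ifih1, Dhx58, Tlr3 and Zbp1, the adaptor genes Mavs and Tmem173 (annotated as Sting1 in newer tables), the kinase gene Tbk1 and Irf3. Earlier results of these data were known when the genes were chosen, so their calls are not an independent test. All 9 were found, each with 1 probe set of its own, among the 13287 genes that have such a probe set. Of the 9 genes, 8 passed the filter on low values and entered the tests, and Dhx58 fell below it.

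There were 7 expression arrays, 3 from cells isolated on day 4 post mortem (D4PM), 2 from day 2 (D2PM) and 2 from cells of living aged mice (old). Every group carried the same transgene (TgPax7nGFP), which places a nuclear green fluorescent protein under the control of Pax7, and in every group the cells were sorted by flow cytometry on that fluorescence. The purity of the sorted cells was not tested here. Ages differed between the groups. The living mice were aged 24 to 26 months by the sample labels and the methods section, although the series title calls them young adult and the design text states 24 to 26 weeks. The mice used post mortem have no age in the sample labels and were 8 to 12 weeks old in a figure legend. By these ages, death and age cannot be told apart in any comparison with old cells. How many mice stand behind an array was not given in the sources used here, and p-values therefore measure the spread between arrays, which may be technical. In such bulk samples, fewer cells of a type and less RNA per cell cannot be told apart.

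As background, RIG-I (encoded by Ddx58) and MDA5 (Ifih1) are cytosolic helicases that bind foreign or misplaced duplex RNA and assemble the adaptor MAVS on mitochondria, while LGP2 (Dhx58) belongs to the same family but lacks the signalling domains. TLR3 senses duplex RNA in endosomes, STING (Tmem173) receives a cyclic dinucleotide made when DNA is sensed in the cytosol, and ZBP1 binds nucleic acids in the left-handed Z form. MAVS and STING recruit the kinase TBK1, which phosphorylates IRF3, and IRF3 then enters the nucleus and switches on Ifnb1, Ifit and chemokine genes. Several of the sensor genes are themselves induced by interferon. Since IRF3 and TBK1 are activated by phosphorylation, their mRNA levels say nothing about how active the proteins were.

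The start regions of these genes were read for the binding motif shared by interferon regulatory factors and the interferon-induced complex ISGF3, spelled here as GAAA, any 2 bases, GAAA, on either strand and with matches allowed to overlap other motifs. RefSeq windows of 300 bases (250 before and 50 after the start, build GRCm38.p6) were read for 6 of the 9 genes. No window was read for Tmem173, Dhx58 or Zbp1, so a match in these genes was not tested. Of the 6 windows, 2 held a match, those of Ddx58 and Ifih1, against 1131 of all 32851 windows (3.44%). The windows of Mavs, Tlr3, Irf3 and Tbk1 had no match to these letters. Both matches lie in the first bases after the annotated start, at bases 3 to 12 in Ddx58 and at bases 33 to 42 in Ifih1, counted from the first transcribed base as 1. They are shown because Ifih1 and Ddx58 are the sensor genes that rose in the comparisons below. Each is printed 5′ to 3′ on the strand of the gene (the minus strand for both), with the match in capitals, in Ddx58 as the reverse complement of the spelled motif.
Ddx58, chr4:40239804-40239833: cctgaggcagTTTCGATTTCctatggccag
Ifih1, chr2:62646206-62646233: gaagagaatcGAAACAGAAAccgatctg
A match is a description of the sequence and no evidence of binding.

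Across the series, the deposited values are log2 expression values with array medians between 6.11 and 6.19. The arrays were quantile normalised, so every change given here is relative to the other transcripts on an array. Amounts of RNA per cell were not measured. The list mean of 11 satellite cell marker genes was 9.92, 9.72 and 9.77 on D4PM arrays, 9.84 and 9.88 on D2PM arrays and 9.94 and 9.86 on old arrays, while single markers moved both ways. Of the 11, 2 passed the test as higher in post-mortem than in old cells (Calcr and Cd34) and 3 as lower (Vcam1, Msc and Met), all 5 named after their values were seen. Of all tested genes, 14.4% were higher and 14.7% lower in that comparison. A list of 18 endothelial genes was higher after death, with list means of 7.30, 7.10 and 6.76 on D4PM arrays, 6.79 and 6.78 on D2PM arrays and 6.42 and 5.81 on old arrays. Of the 18, 11 passed the test as higher in post-mortem cells and 0 as lower. All 6 lymphocyte genes in the table were below the filter. Of 10 fibroadipogenic progenitor genes, 1 was below it and 9 passed it, of which 0 were called post mortem and 2 were higher at D2PM against old. Of 13 macrophage and monocyte genes, 6 were below it, Csf1r, Mrc1, Cd163 and Ptprc among them, and 7 passed it, of which 0 were higher post mortem and 1 was lower (Cd14). Of 9 dendritic cell genes, 3 were below it and 6 passed, of which 1 was higher (Bst2, also an interferon-induced gene, named after its value was seen) and 0 lower.

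Among the helicase sensors, Ifih1 rose in post-mortem cells on both days and Ddx58 in D4PM cells, each against old cells. Ifih1 (GRCm38.p6, chr2:62595618-62646255) had log2 values of 9.50, 9.34 and 8.76 in D4PM cells, 8.43 and 8.41 in D2PM cells and 6.44 and 6.49 in old cells. The 3 groups did not overlap at any point, and both D2PM arrays lay between the other groups. Of the 9944 genes tested, 46% had no overlap between post-mortem and old arrays, in either direction. The share was 62.2% for D2PM against old, 54.5% for D4PM against old and 25.3% for D4PM against D2PM. The mean of the days exceeded old cells by 2.35 on the log2 scale (standard error 0.17, 95% interval 1.97 to 2.73, adjusted p = 7.92e-06, limma), a 5.09-fold difference and the 16th highest change among the 9944 genes tested. By day, the difference from old was 2.74 at D4PM (6.67-fold, adjusted p = 4.82e-06) and 1.96 at D2PM (3.88-fold, adjusted p = 0.000227).

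Ddx58 (chr4:40203777-40239825) gave the wider spread of the pair. Its log2 values were 7.18, 7.82 and 6.89 in D4PM cells, 6.58 and 6.89 in D2PM cells and 6.48 and 6.37 in old cells. All 5 post-mortem arrays lay above both old arrays, a separation that 46% of all tested genes had in either direction. The days overlapped, D4PM array 3 and D2PM array 2 having the same value. D4PM cells exceeded old cells by 0.87 (standard error 0.23, 95% interval 0.38 to 1.37, 1.83-fold, adjusted p = 0.0143), a call that was lost without either old array (adjusted p = 0.0862 without array 1 and 0.162 without array 2). D2PM cells stood 0.31 above old cells (95% interval -0.23 to 0.85, adjusted p = 0.414), and the mean of the days 0.59 above them (95% interval 0.14 to 1.05, adjusted p = 0.0526), neither of which passed.

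Dhx58, the regulatory member of the family (chr11:100694884-100704271), was at the low end of the table. It had log2 values of 4.57, 5.03 and 4.57 in D4PM cells, 4.54 and 4.57 in D2PM cells and 4.31 and 4.57 in old cells, and 4 of the 7 arrays shared a single value. The groups overlapped. In a fit without the filter, its change post mortem was 0.20 (95% interval -0.11 to 0.52, adjusted p = 0.375). The values carry no detection call, so whether the transcript was present at all cannot be read from them, and changes of such dim probe sets may be compressed.

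Neither sensor gene outside that family passed a test. Tlr3 (chr8:45395665-45411075) had log2 values of 5.78, 5.75 and 6.04 in D4PM cells, 5.73 and 6.00 in D2PM cells and 5.75 and 5.56 in old cells. D4PM and D2PM cells differed from each other by -0.01 (95% interval -0.33 to 0.31) and together from old cells by 0.21 (95% interval -0.09 to 0.50, adjusted p = 0.274). A change as large as that of Ifih1 lies outside both intervals. However, Tlr3 is itself rather dim (mean of 5.80 over the arrays, with the filter at 5.12), so its changes may be compressed.

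Zbp1 (chr2:173206612-173218959) had log2 values of 6.01, 6.08 and 6.06 in D4PM cells, 5.94 and 5.66 in D2PM cells and 5.94 on both old arrays. The D4PM arrays lay just above all others, and the D2PM arrays at or below the old ones. Between D4PM and D2PM, 25.3% of all tested genes had no overlap. Its difference was 0.25 between D4PM and D2PM (95% interval -0.03 to 0.53, adjusted p = 0.650), and -0.02 between post-mortem and old cells (95% interval -0.28 to 0.24, adjusted p = 0.927). No comparison of Zbp1 passed the test.

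**Figure D1:**
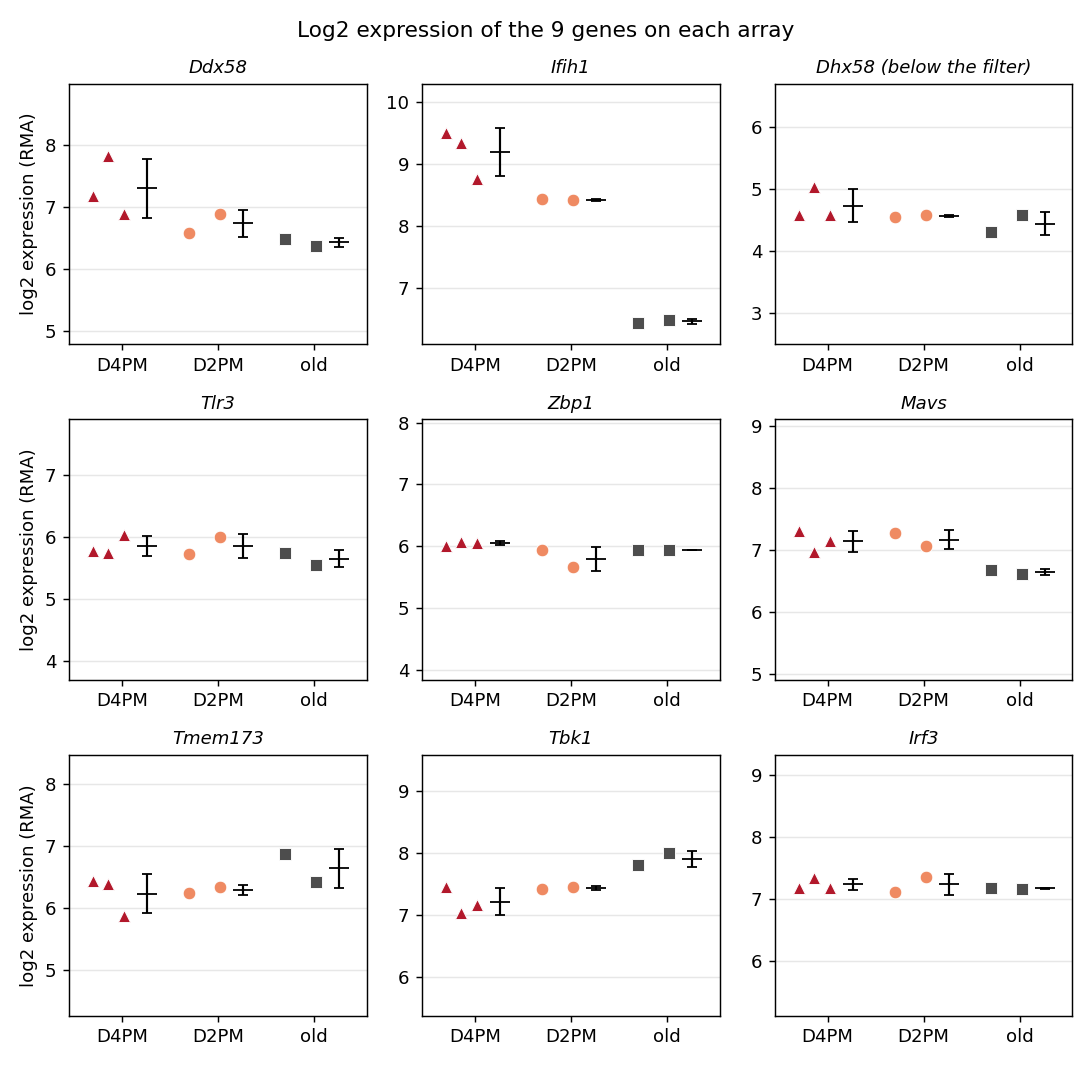
Log2 expression of each of the 9 genes on the 3 D4PM, 2 D2PM and 2 old arrays, with 1 point per array in the order of the replicate numbers and a bar for the group mean with its SD. All panels span the same range of log2 units, so differences may be compared between panels but levels of different genes may not. Ifih1 is the gene whose 3 groups lie far apart, at means of 9.20, 8.42 and 6.46 in D4PM, D2PM and old cells.

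Of the adaptor genes, Mavs was higher after death, and Tmem173 passed no test. Mavs, which encodes the mitochondrial adaptor of RIG-I and MDA5 (chr2:131234063-131248025), had log2 values of 7.30, 6.96 and 7.14 in D4PM cells, 7.27 and 7.05 in D2PM cells and 6.68 and 6.60 in old cells. All post-mortem arrays lay above both old arrays, a separation that 46% of all tested genes had in either direction, and the days overlapped. The mean of the days was 0.51 above old cells (standard error 0.13, 95% interval 0.23 to 0.79, 1.42-fold, adjusted p = 0.0123), with 0.50 at D4PM (adjusted p = 0.0212) and 0.52 at D2PM (adjusted p = 0.0342). The call post mortem was lost without old array 1, old array 2 or D2PM array 1 (adjusted p = 0.0561, 0.123 and 0.0552).

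Tmem173, the gene of STING on chromosome 18, had log2 values of 6.43, 6.38 and 5.87 in D4PM cells, 6.24 and 6.34 in D2PM cells and 6.87 and 6.42 in old cells. Among the post-mortem arrays, only D4PM array 1 reached above the lower old array, and barely. Its difference post mortem was -0.38 (95% interval -0.77 to -0.00, adjusted p = 0.120), which did not pass after adjustment. It was -0.16 without old array 1 and -0.61 without old array 2, and passed in neither case (adjusted p = 0.661 and 0.128). Against old cells it was -0.42 at D4PM (adjusted p = 0.124) and -0.35 at D2PM (adjusted p = 0.259).

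Tbk1, the kinase on which both adaptors converge (chr10:121546455-121586794), was lower after death. It had log2 values of 7.45, 7.03 and 7.16 in D4PM cells, 7.41 and 7.45 in D2PM cells and 7.81 and 7.99 in old cells. Every post-mortem array lay below both old arrays, a separation that 46% of all tested genes had in either direction. The mean of the days was 0.58 below old cells (log2 change -0.58, standard error 0.14, 95% interval -0.87 to -0.28, 1.49-fold lower, adjusted p = 0.00853). D4PM cells alone had a change of -0.69 from old cells (95% interval -1.01 to -0.36, 1.61-fold lower, adjusted p = 0.00558), and D2PM cells one of -0.47 (95% interval -0.82 to -0.11, adjusted p = 0.0648), which did not pass. Without old array 2 both calls were lost (adjusted p = 0.127 for the mean of the days and 0.0892 for D4PM).

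Irf3 itself (chr7:44997648-45002848) was the flattest of the 9 genes, with an SD of 0.093 log2 units over the 7 arrays, next to a lowest SD of 0.0914 among all probe sets of the table. Its log2 values were 7.18, 7.35 and 7.18 in D4PM cells, 7.12 and 7.36 in D2PM cells and 7.18 and 7.17 in old cells. D4PM arrays 1 and 3 and old array 1 had the same value. Of all probe sets, 46.8% had a value shared by 2 or more arrays. The old arrays fell inside the range of the post-mortem ones. The change post mortem was 0.06 (95% interval -0.20 to 0.33, adjusted p = 0.714) and that of D4PM against D2PM -0.00 (95% interval -0.29 to 0.28, adjusted p = 0.993).

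**Figure D2:**
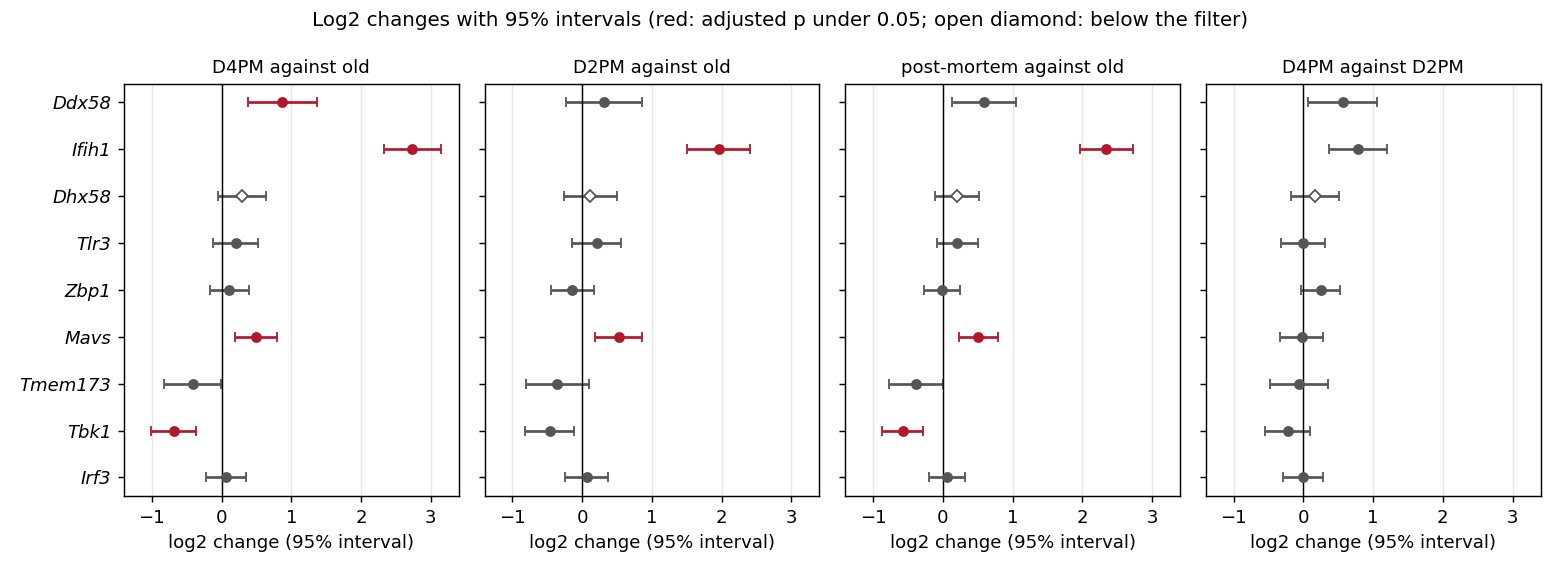
Log2 changes of the 9 genes with their 95% intervals in 4 comparisons, in the order of their roles, with red for adjusted p under 0.05 and an open diamond for Dhx58, which was fitted without the filter. Ifih1 and Mavs lie above 0 and Tbk1 below it in every comparison with old cells, while all intervals of D4PM against D2PM are in grey.

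Counted together, the members' calls can be read against the share of all tested genes. Between post-mortem and old cells, 29.0% of the 9944 genes passed the test (14.4% as higher and 14.7% as lower), and of the 8 members tested, 2 were higher (Ifih1 and Mavs) and 1 was lower (Tbk1). For D4PM against old, where 27.9% of genes passed (12.4% higher, 15.5% lower), 3 members were higher (Ddx58, Ifih1 and Mavs) and Tbk1 was lower. For D2PM against old, where 19.4% passed (10.3% higher, 9.11% lower), 2 were higher (Ifih1 and Mavs) and 0 lower. Sharing the old arrays, these comparisons are not independent of each other. The median change of the 8 members post mortem was 0.13 log2 units, against 0.00 over all genes tested. With 3 of 8 members called, against 29.0% of all genes, the share of members called is no result about them as a group.

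Between the days, 0 of the 8 members passed, where 19 genes (0.191%) of the 9944 did, and 772 genes had an unadjusted p under 0.05. Among the members, Ifih1 and Ddx58 had unadjusted values below that level. Ifih1 was 0.78 higher in D4PM than in D2PM cells (standard error 0.19, 95% interval 0.37 to 1.19, 1.72-fold, adjusted p = 0.239). All 3 D4PM arrays lay above both D2PM arrays, a separation that 25.3% of all tested genes had in either direction. Without D4PM array 3, where Ifih1 was lowest of the D4PM arrays, the difference was 1.00 and passed (adjusted p = 0.0208). Ddx58 was 0.56 higher (95% interval 0.07 to 1.06, adjusted p = 0.592) with overlapping arrays.

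Over the D4PM arrays, Ifih1 and the endothelial list were both highest on array 1 and lowest on array 3. The values were 9.50, 9.34 and 8.76 for Ifih1 and 7.30, 7.10 and 6.76 for the list mean. That order was shared by the fibroadipogenic progenitor list (7.75, 7.62 and 7.36) and the macrophage and monocyte list (5.18, 5.11 and 5.05). It also held for the list of RIG-I-like receptor regulators described below (7.78, 7.72 and 7.71). The remaining lists, the satellite cell list among them, did not follow it. On D4PM array 3 the endothelial mean was just below both D2PM arrays (6.76 against 6.79 and 6.78), and Ifih1 there exceeded the D2PM arrays (8.76 against 8.43 and 8.41). Between D4PM and D2PM all 18 endothelial genes had a change above 0 (median 0.27) and 0 passed the test, and between post-mortem and old cells their median change was 0.63, against 2.35 for Ifih1. Of these genes, Cdh5, a cadherin of vessel walls named after its value was seen, had a log2 level of 8.68 ± 0.24 in post-mortem cells and 6.89 ± 0.90 in old cells (SD, n = 5 and 2). The part of such transcripts in the change of Ifih1, Ddx58 or Mavs was not tested.

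**Figure D3:**
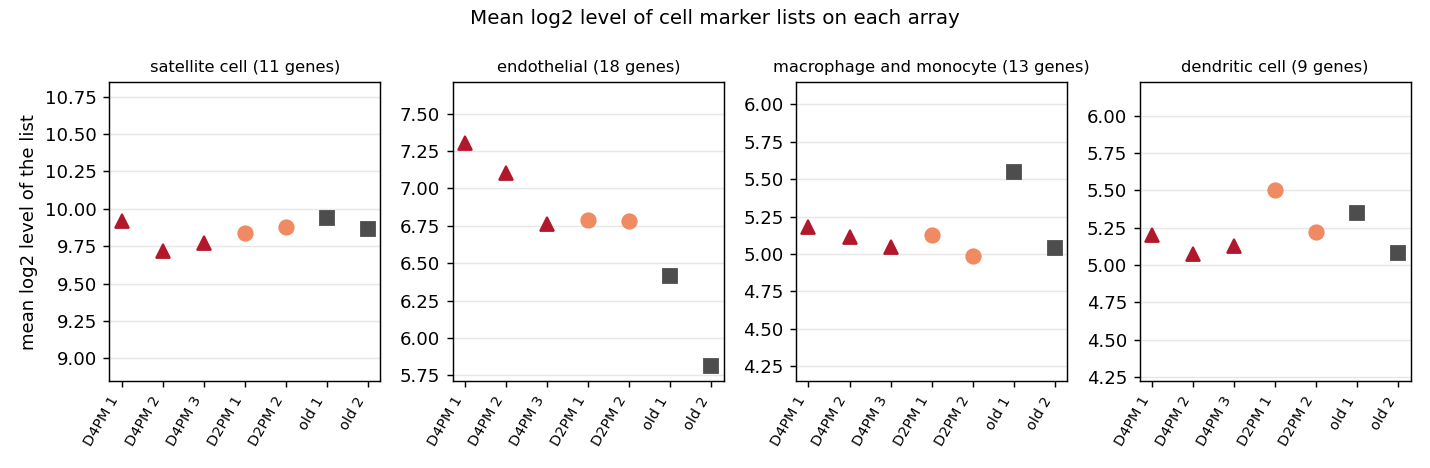
Mean log2 level on each array of the satellite cell, endothelial, macrophage and monocyte, and dendritic cell marker lists, with 1 point per array (3 D4PM, 2 D2PM, 2 old) and panels of equal height. The endothelial means run from 6.76 to 7.30 on post-mortem arrays and from 5.81 to 6.42 on old arrays, and the satellite cell means lie between 9.72 and 9.94 on all 7.

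For each member with a call, the tested genes of most similar pattern over the 7 arrays were listed as a description (Pearson correlation across arrays that fall into separate groups). For Ifih1 they were Oasl1 (r = 0.9951), an antiviral gene, Otud1 (r = 0.9936), a deubiquitinase gene, and Psmb9 (r = 0.9905), a subunit gene of the immunoproteasome. For Ddx58 they were Dusp14 (r = 0.9962), Mplkip (r = 0.9764) and Dusp4 (r = 0.9698), with Dusp14 and Dusp4 encoding dual-specificity phosphatases. For Mavs they were Ppp1r2 (r = 0.9964), Pbx2 (r = 0.9916) and Bnip3l (r = 0.9879), and for Tbk1 Ccar1 (r = 0.9998), Zim1 (r = 0.9973) and Dmxl1 (r = 0.9959). An r above 0.9 is common with 7 arrays: it was reached by 439 genes with Ifih1, 824 with Tbk1, 246 with Mavs and 75 with Ddx58.

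Among genes that tune the RIG-I-like receptors, more fell than rose after death. Of 22 tested, 7 were lower and 1 was higher in post-mortem than in old cells, where 14.7% and 14.4% of all genes were, and the others did not pass, with a median change of -0.31 log2 units against 0.00 over all genes. This list and the pathway lists below were chosen with earlier results of these data known. Their counts are therefore not independent evidence of a direction. Lower were Rnf125 (change -1.50, standard error 0.13, adjusted p = 3e-05) and Rnf122 (change -1.06, adjusted p = 0.000854), ubiquitin ligases that mark RIG-I for degradation. Rnf125 averaged 6.55 ± 0.20 in post-mortem cells and 8.03 ± 0.02 in old cells (SD, n = 5 and 2). Also lower were Dhx9 (-0.70) and Dhx15 (-0.56), helicases reported to assist RNA sensing, and Tomm70a (-0.78), an import receptor that links MAVS to TBK1. The genes that fell thus include both genes that restrain the pathway and genes that assist it. Without old array 2, Dhx15 and Tomm70a did not pass (adjusted p = 0.0906 and 0.116). The 1 gene that rose was Prkra, an activator of the kinase PKR that also assists RIG-I (change 0.61, adjusted p = 0.00642), named after its value was seen. Ddx3x and Pcbp2 had changes of -0.39 and -0.29 (adjusted p = 0.0856 and 0.105) and did not pass, although Ddx3x did after a second quantile normalisation, with the replicate block and without D4PM array 1 (adjusted p = 0.0423, 0.0493 and 0.0408).

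In the list of DNA and Z-form nucleic acid sensing, 1 of 20 tested genes was higher and 3 were lower, with a median of -0.13. Of all tested genes 14.4% were higher and 14.7% lower, so the count of lower genes is near the general share. Lower were Lrrfip1 (-1.07, adjusted p = 0.000973), a cytosolic nucleic acid binding protein, Trim56 (-0.74, adjusted p = 0.00223), a ubiquitin ligase acting on this pathway, and Ifi35 (-0.73, adjusted p = 0.00127), an interferon-induced gene. Polr3c, a subunit gene of RNA polymerase III, was higher (0.43, adjusted p = 0.0168). Trim56 missed the threshold without old array 2 (adjusted p = 0.0598), and Polr3c without old array 1 or D2PM array 1 (adjusted p = 0.121 and 0.0509). Of the endosomal Toll pathway to which Tlr3 belongs, 0 of 11 tested genes were higher and 2 were lower, the latter again near the share of all genes. Lower were the coreceptor gene Cd14 (-1.03, adjusted p = 0.00345) and Myd88 (-0.63, adjusted p = 0.0259), an adaptor of other Toll receptors that TLR3 does not use. Cd14 is also a macrophage marker, and the mean of 13 macrophage and monocyte genes was 5.18, 5.11 and 5.05 on D4PM arrays, 5.12 and 4.99 on D2PM arrays and 5.54 and 5.04 on old arrays. The part of macrophage transcripts in the lower Cd14 level was not tested. Without old array 1, Cd14 and Myd88 had changes of -0.65 and -0.26 and did not pass (adjusted p = 0.0689 and 0.335), and Myd88 was also lost without D2PM array 1, D2PM array 2 or D4PM array 2 (adjusted p = 0.0641, 0.114 and 0.0512).

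Among 14 tested partners of TBK1 and IRF3, 2 were higher and 5 lower (median -0.13), where 14.4% and 14.7% of all genes were. Tank, a scaffold of TBK1, was lower along with Tbk1, at 7.45 ± 0.14 in post-mortem cells and 7.96 ± 0.01 in old cells (SD, n = 5 and 2, change -0.49, adjusted p = 0.009). Tnip1 (-0.67, adjusted p = 0.00146), which binds ubiquitin chains and restrains inflammatory signalling, and Crebbp (-0.43, adjusted p = 0.0231), the coactivator that binds phosphorylated IRF3, were lower as well. So were Ikbkb (-0.41, adjusted p = 0.0361) and Ppm1a (-0.36, adjusted p = 0.0317), a kinase and a phosphatase gene named after their values were seen. Higher were the chaperone gene Hsp90aa1 (0.43, adjusted p = 0.0173) and the adaptor gene Fadd (0.38, adjusted p = 0.0221). Of these, Tnip1 kept its call whichever array was left out, while Tank, Crebbp, Hsp90aa1 and Fadd each lost it without old array 2 (adjusted p = 0.0779, 0.145, 0.0537 and 0.142), and the first 3 also without old array 1 (adjusted p = 0.0529, 0.0920 and 0.112). Crebbp and Hsp90aa1 were lost without either D2PM array too (adjusted p between 0.0503 and 0.0670), and Fadd without D2PM array 1 (adjusted p = 0.0599). After a second quantile normalisation Hsp90aa1 had a change of 0.28 and did not pass (adjusted p = 0.0818). Tnfaip3, the gene of the deubiquitinase A20, averaged 8.54 ± 0.21 in D4PM cells, 7.78 ± 0.015 in D2PM cells and 8.10 ± 0.16 in old cells (SD, n = 3, 2 and 2). Its difference was 0.76 between D4PM and D2PM (adjusted p = 0.101, and 0.0337 with array weights) and 0.43 between D4PM and old cells (adjusted p = 0.0478).

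Of the other interferon regulatory factor genes, 0 of 6 tested were higher and 2 were lower, where 14.4% and 14.7% of all genes were. Lower were Irf9 (-1.20, adjusted p = 0.00015), the DNA-binding subunit of ISGF3, and Irf8 (-1.13, adjusted p = 0.000233), a factor of myeloid cells. Irf7, the interferon-inducible relative of Irf3, which was named after its value was seen, had a change of -0.41, Irf1 one of -0.32 and Irf2 one of 0.08 (adjusted p = 0.0635, 0.165 and 0.688), and none of the 3 passed. Of the interferon receptor and its kinases and factors, 3 of 4 tested genes were lower and 0 higher, with Irf9 counted again, Jak1 at -0.75 (adjusted p = 0.00167) and Ifnar2 at -0.38 (adjusted p = 0.0378). Jak1 missed the threshold without old array 2 (adjusted p = 0.0504), and Ifnar2 without each array in turn except D4PM array 3 (adjusted p up to 0.153). Stat2 had a change of -0.32 (adjusted p = 0.104). By day, Stat2 was lower than in old cells at D2PM (-0.52, adjusted p = 0.0417) and did not pass at D4PM (-0.11, adjusted p = 0.615).

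The genes listed as IRF3 targets were mostly higher after death. Whether IRF3 or another factor induced them in these cells was not tested. Of 9 tested, 8 were higher and 0 lower in post-mortem cells (median 3.43 log2 units), where 14.4% and 14.7% of all genes were. Between the days, 4 were higher in D4PM than in D2PM cells (median 1.00), where 0.191% of all genes were called in either direction. This list was written with these values known and is not independent evidence of their direction. Ifit1, an antiviral RNA-binding protein gene, averaged 11.04 ± 0.57 in post-mortem cells and 5.83 ± 0.16 in old cells (SD, n = 5 and 2), a change post mortem of 5.11 (standard error 0.12, adjusted p = 8.32e-10). Isg20, an exonuclease gene of the same list, had a change of -0.07 (adjusted p = 0.830). In every other list described here, 0 genes passed between D4PM and D2PM.

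**Figure D4:**
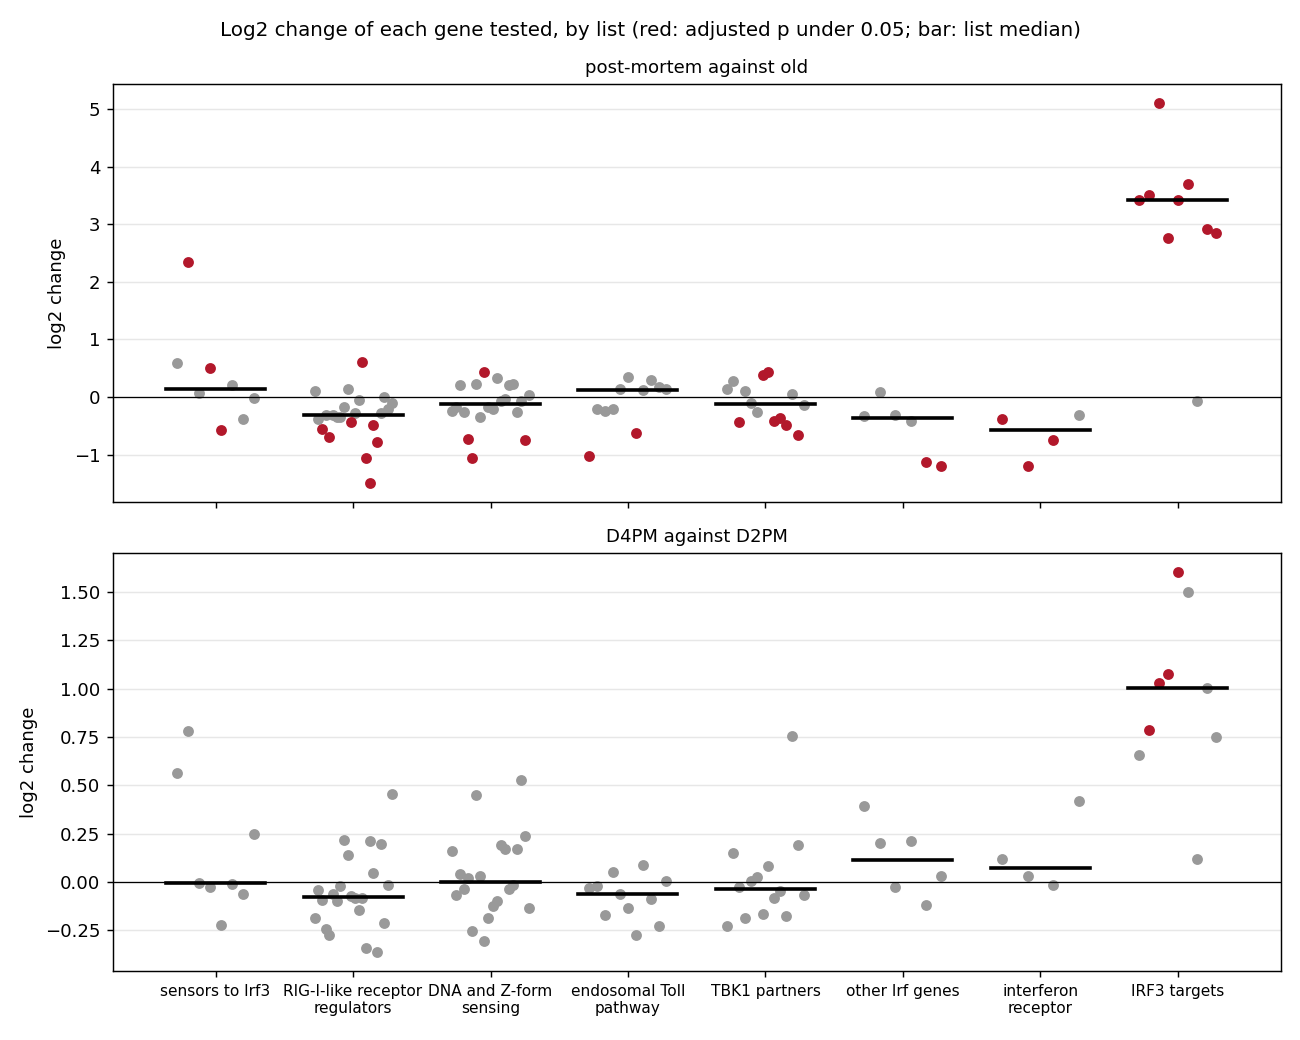
Log2 changes of each tested gene, grouped by list, in post-mortem against old cells (upper panel) and D4PM against D2PM cells (lower panel, with another scale), with red for adjusted p under 0.05 and a bar for the list median. The median lies at 3.43 for IRF3 targets in the upper panel and between -0.57 and 0.13 for the other lists, and red points in the lower panel occur in the IRF3 target list alone.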

How the data were processed

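RNA of sorted satellite cells was hybridised to 7 Affymetrix arrays (D4PM, D2PM, old). The deposited table holds log2 values that the authors made with RMA, a background correction, quantile normalisation and probe summary. The labels also name limma. Per the methods, non-expressed and invariant probes had been removed, and the lowest SD found in the table was 0.0914. Shares of genes called are therefore shares of varying genes.

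Probe sets with a single gene in the array annotation were used (14480 of 18675), 1 per gene (the brightest), and the 9944 genes with a mean of at least 5.12 (the 25th percentile) were tested. RefSeq (GRCm38.p6) held the Entrez identifiers of 14425 of the 14480. The comparisons were contrasts of 3 group means in limma 3.58.1 (R 4.3.3), with 4 degrees of freedom left, moderated variances, and a threshold of 0.05 on p adjusted by Benjamini-Hochberg. Post-mortem against old was the mean of the D4PM and D2PM differences. The fit was tested on simulated data.

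Members, gene lists and tests were chosen with earlier results of these data known. From each list, up to 5 genes past the threshold with the largest moderated statistic and up to 2 others with the highest mean could be named, and 3 genes of like pattern per called member. The alternatives covered normalisation (quantile step repeated, arrays centred on their medians), filters, averaging probe sets per gene, the variance prior, array weights, other groupings, replicate number as block, omission of single arrays and the methods' t-test. Each member has 1 probe set, so none could be exchanged. Table columns were assigned to samples by their labels, with 0 left over. The number of arrays limits the precision.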

Additional observations from a re-analysis of the deposited data

How the results depend on the processing

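Of 532 values of the members under 12 other settings and 7 omissions of an array, 483 kept their direction and call, and 18 changed sign, all where the comparison had made no call. Ifih1 stayed called post mortem in every one, at 2.27 to 2.46 without an array. Without 1 array, the members called numbered 1 to 4 post mortem (1 without old array 2), 0 to 1 for D4PM against D2PM, 1 to 3 for D2PM against old and 1 to 4 for D4PM against old. All genes called then numbered 858 to 2814 for post-mortem against old (858 without old array 2), 0 to 21 for D4PM against D2PM, 323 to 2054 for D2PM against old and 911 to 2512 for D4PM against old. The methods' t-test called 1719, 0, 15 and 14 genes, and 0 members on either day against old. Between the days, the interquartile filter and the post-mortem arrays alone each gave 2 genes. The replicate block gave 54 genes and 1 member, Ifih1, at 1.00 (adjusted p = 0.0046, with D4PM array 3 unpaired and so carrying no weight). By the labels, arrays of 1 number share only that number. Their deviations from the group means correlated at -0.08 to 0.05. In groups of 2 arrays such deviations mirror each other, so these values cannot show whether the arrays share a source. Ddx58 post mortem passed with the 50th percentile filter (adjusted p = 0.0434), the interquartile filter (0.0479), the replicate block (0.0039) and without D4PM array 2 or 3 (0.0346 and 0.0182). Tbk1 at D2PM passed with median centring (0.042), array weights (0.0445) and without D4PM array 1 (0.0433), and Tbk1 post mortem missed with the t-test (0.0593). Of the named pathway genes post mortem, Polr3c (0.118), Tomm70a (0.0744), Cd14 (0.0549), Myd88 (0.138) and Ifnar2 (0.0729) also missed with the t-test, and Ifnar2 (0.0566) and Hsp90aa1 (0.0818) after the second quantile step. Mavs missed without either old array on each day, without either D2PM array at D2PM and without D4PM array 1 at D4PM. Sign changes post mortem were Zbp1 (0.00758 with the t-test or the days as 1 group, -0.0857 to 0.0507 without an array), Isg20 (0.0364 with the block, -0.34 to 0.21), Tnfaip3 (-0.0592 to 0.17) and Irf2 (-0.00705 to 0.17). Between the days they were Mavs (0.0157 after the second quantile step, -0.13 to 0.0809), Tlr3 (0.0206 with array weights, -0.14 to 0.13), Sting1 (0.12 with the block, -0.16 to 0.12) and Irf3 (0.0409 after the quantile step, 0.0236 with the block, -0.12 to 0.12), and at D2PM Irf3 (-0.0551 to 0.18). The cause of these changes was not tested.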
